A study of Mus musculus x Rattus norvegicus with 2 samples.

Results

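The cells described here were mouse lung cells gated on RNA of Aspn, Hhip and Fgf18, a gate meant to hold alveolar myofibroblasts. A barcode entered the gate if it had at least 500 genes, at most 20% of its unique molecular identifiers (UMIs) on mitochondrial genes and at least 90% on mouse genes. It also had to hold at least 10 UMIs of Col1a1, Col1a2 and Col3a1 together and at least 5 UMIs of Aspn, Hhip and Fgf18 together. Barcodes with more than 2 UMIs of the epithelial gene Epcam, more than 2 of the endothelial genes Cdh5 and Pecam1 together, or 4 or more of the pericyte genes Higd1b, Cox4i2, Cspg4 and Kcnk3 together were left out. These limits kept 2241 of 22047 barcodes, or 2241 of the 16268 mouse barcodes that passed the quality limits. The measured values of these genes chose the cells, so the levels of the gate genes are given as a description.

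The gate found 1636 cells in the mutant library and 605 cells in the control library. The mutant library was made from mouse lung grown in a rat host that was Nkx2-1-/-, and Nkx2-1 is the transcription factor that sets the identity of lung epithelium. The control library was made from a lung of mixed mouse and rat cells in a wild-type rat host. Both lungs were taken at E20.5, the strain of both is given as C57BL/6, SD, and both were profiled with the 10x 3' v3 chemistry. The deletion was in the rat host, and no mutation is stated for the mouse cells. How many embryos went into a library is not given in the sources used here. An EGFP UMI was found in 99.5% of gated mutant cells and in 100% of gated control cells. Each group was a single library (n = 1), so differences between mutant and control have no replicate check. No test was made, and every interval below is a 95% interval of counting error only.

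Alveolar myofibroblasts are Pdgfra-positive mesenchymal cells that answer to PDGF ligands from the epithelium, contract, and lay down elastin at the tips of the growing septa that divide the air spaces. They share the actin, myosin and calponin genes of their contractile apparatus with the smooth muscle of airways and vessels. Alveolar fibroblasts are their neighbours in the alveolar wall, are marked by Tcf21, and make matrix and growth factors for the epithelium. Hhip binds and blocks hedgehog ligands, Fgf18 is a growth factor of the developing lung, and Aspn is a small proteoglycan of the matrix.

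The libraries were of like depth, with 10918 barcodes and 103627303 UMIs in the mutant and 11129 barcodes and 123047433 UMIs in the control library. Mouse barcodes that passed the quality limits numbered 8854 in the mutant library, at a median of 10356.5 UMIs, and 7414 in the control library, at a median of 8270.5 UMIs. Gated cells had medians of 11492 UMIs in the mutant and 10431 UMIs in the control library, and 4.09% and 3.08% of these were mitochondrial. The libraries shared 47 barcodes, of which 7 in the mutant and 2 in the control library were gated cells. The level of a gene in the mutant relative to the control library depended on its introns, and the matrices came from Cell Ranger 7.0.1, which counts intron reads by default, and 6.0.1, which does not. Which setting was used is not given in the sources used here. In gated cells the median log2 difference between mutant and control was -0.45 where introns summed to at most 2 kb and 1.39 where they summed to over 200 kb. For this reason each gene has 2 differences below, the plain log2 difference and a relative one, from which the median of genes with a similar intron length was subtracted. For the genes at either end of the intron range this was a common median.

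The gated cells were mixed, and many of them carried more marker RNA of alveolar fibroblasts than of myofibroblasts. The test of the name used 8 myofibroblast markers that the gate did not use (Tgfbi, Pdgfra, Dach2, Egfem1, Mustn1, P2ry14, Cdh4 and Lgr6) and 8 markers of alveolar fibroblasts (Tcf21, Wnt2, Npnt, Limch1, Inmt, Slc7a10, Col13a1 and Fgf10). Cells with more UMIs of the first list than of the second are called myofibroblast-leaning, and the others fibroblast-leaning. Myofibroblast-leaning cells were 805 of 1636 gated cells in the mutant library (49.2%; 46.8 to 51.7) and 342 of 605 in the control library (56.5%; 52.5 to 60.5). The fibroblast-leaning cells, which take in equal sums and cells with few markers of either list, were 831 in the mutant and 263 in the control library. Mesothelial markers summed to 232 CPM in mutant and 602 CPM in control fibroblast-leaning cells, beside 41.1 and 26.15 CPM in other collagen cells. The data therefore go against the label alveolar myofibroblast for much of the gate, and the results are given for the gated cells and for the myofibroblast-leaning cells.

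The split set the cells far apart, as the plot of the marker sums shows. Myofibroblast-leaning cells had a median of 69 UMIs of the myofibroblast list and 1 UMI of the fibroblast list in the mutant library, and of 25 and 1 in the control library. Fibroblast-leaning cells had medians of 1 and 60 UMIs in the mutant and of 1 and 18 in the control library. The sums lay within 2-fold of each other in 39 mutant and 54 control cells, were equal in 3 and 6, and one of them was 0 in 619 and 227. Egfem1 has 605010 bases of intron and was much higher in the mutant library, and leaving it out of the split gave 790 mutant and 342 control cells.

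**Figure D1:**
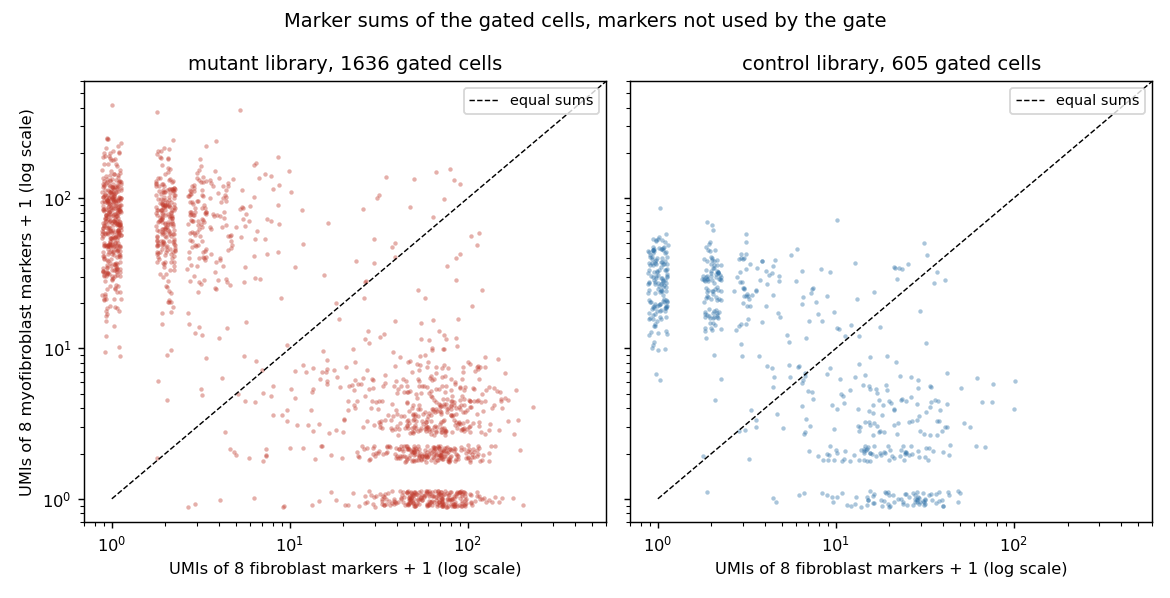
Each point is 1 gated cell, with the UMIs of the 8 fibroblast markers on the x axis and of the 8 myofibroblast markers on the y axis (each plus 1, log scales, with a small random shift), in the mutant library (left, 1636 cells) and the control library (right, 605 cells). The cells form 2 clouds on either side of the line of equal sums, and 39 mutant and 54 control cells have sums within 2-fold of each other.

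Among the gated cells, the 3 gate genes did not mark the same cells. Fgf18 had a UMI in 71.6% of myofibroblast-leaning mutant cells and 84.5% of myofibroblast-leaning control cells, but in 6.86% of fibroblast-leaning mutant cells and 12.5% of fibroblast-leaning control cells. Aspn showed the opposite pattern, with a UMI in 14.3% and 14.9% of myofibroblast-leaning cells of the mutant and control library and in 60.9% and 45.2% of fibroblast-leaning cells. A cell with little Fgf18 could enter the gate only through Aspn or Hhip, so the high Aspn share of fibroblast-leaning cells follows in part from the gate. Other collagen cells, which were below the gate limit, had an Aspn UMI in 27.8% of mutant and 14.55% of control cells. Hhip, which made up most of the gate UMIs, was found in 99.1% and 98.2% of myofibroblast-leaning cells of the mutant and control library, and also in 86.9% and 76.4% of fibroblast-leaning cells. Endothelial cells, which should lack these genes, had an Fgf18 UMI in 3.06% and 1.96%, an Aspn UMI in 4.596% and 4.715% and a Hhip UMI in 10.4% and 7.21% of mutant and control cells. Median depths were 9620 and 10369 UMIs in myofibroblast-leaning, 13721 and 10541 in fibroblast-leaning and 8302 and 7370.5 in endothelial cells of the mutant and control library. After every cell was thinned to 3000 UMIs, Fgf18 was found in 40.5% of myofibroblast-leaning mutant cells and 54.0% of myofibroblast-leaning control cells, against 0.754% and 0.424% of endothelial cells of the mutant and control library. Thinned in the same way, Aspn was found in 36.1% of fibroblast-leaning mutant cells and 33.8% of fibroblast-leaning control cells, and in 9.10% of myofibroblast-leaning mutant cells and 11.8% of myofibroblast-leaning control cells.

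The share of myofibroblast-leaning cells climbed with the UMIs of the gate genes up to 49, and the limit of 5 UMIs fell where most collagen cells still leaned to fibroblasts. Of mutant cells, 2.54% leaned to myofibroblasts at 0 gate UMIs, 5.46% at 1 to 4, 19.4% at 5 to 9, 51.0% at 10 to 19 and 84.8% at 20 to 49. Of control cells, the shares were 4.69%, 14.8%, 38.7%, 78.1% and 93.5% over the same steps. At 50 or more, 92.2% of 64 mutant cells and 1 of 2 control cells did. Just inside the limit, at 5 UMIs, 11.6% of 155 mutant cells and 34.7% of 118 control cells leaned to myofibroblasts. Just outside it, at 4 UMIs, 9.39% of 213 mutant cells and 25.1% of 175 control cells did. Tgfbi stood at 139 CPM in mutant cells at 5 UMIs and 130 CPM at 4 UMIs, and at 344 and 213 CPM in control cells. Levels in CPM are the UMIs of a gene over all mouse UMIs, each summed over the cells named.

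**Figure D2:**
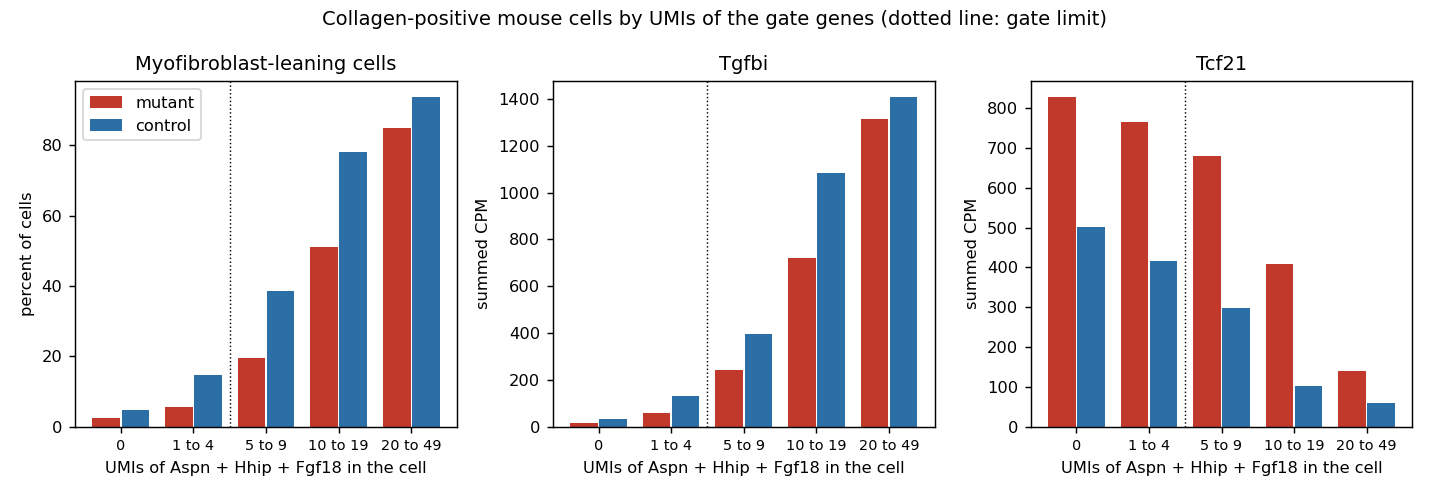
Collagen-positive mouse cells that passed the other limits, grouped by the summed UMIs of Aspn, Hhip and Fgf18 per cell (x axis), with the percent of myofibroblast-leaning cells (left), the summed CPM of Tgfbi (middle) and the summed CPM of Tcf21 (right) in the mutant library (red, left bar) and the control library (blue, right bar). The dotted line is the limit of 5 UMIs, and the share of myofibroblast-leaning cells goes up over the steps shown, to 84.8% of mutant and 93.5% of control cells at 20 to 49 UMIs; the step of 50 or more, with 64 mutant and 2 control cells, is not drawn.

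Gated cells were a larger part of the mesenchyme in the mutant library, and the difference was smaller when Hhip was left out of the gate. The mesenchyme here means mouse cells that passed the other limits and either the collagen limit or the smooth muscle gate described below. Gated cells were 50.6% of 3235 such cells in the mutant library (48.8 to 52.3) and 19.8% of 3049 in the control library (18.4 to 21.3). Myofibroblast-leaning cells of the gate were 24.9% (23.4 to 26.4) in the mutant and 11.2% (10.1 to 12.4) in the control library. With Hhip left out of the gate and 5 UMIs of Aspn and Fgf18 asked for, the gated cells were 12.3% and 7.28% of mutant and control cells, and the myofibroblast-leaning ones 4.67% and 4.79%. This setting was chosen after seeing the data, and Hhip was itself higher in mutant myofibroblast-leaning cells, as given below. The same marker split made without any gate found 878 myofibroblast-leaning cells in the mutant library (27.1%; 25.6 to 28.7) and 585 in the control library (19.2%; 17.8 to 20.6), or 26.5% and 19.1% with Egfem1 left out of the split. After thinning of every cell to 3000 UMIs before the gate, gated cells were 23.8% in the mutant and 7.94% in the control library. Whether the shares also reflect which cells the dissociation released was not tested.

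Against the other collagen-positive cells, the myofibroblast-leaning cells had more RNA of Crh, Igf1, Ednrb and of many contractile genes, and less of the alveolar fibroblast genes. Of 8613 genes of at least 10 CPM, 303 were at least 2-fold higher in both libraries (3.52%) and 188 at least 2-fold lower in both (2.18%). A log2 difference adds 10 CPM to each value, and with cells chosen by their own RNA these counts are a description. The corticotropin-releasing hormone gene Crh had the largest difference that held in both libraries. It stood at 518 CPM in myofibroblast-leaning and 8.33 CPM in other collagen cells of the mutant library, and at 534 and 7.403 CPM in the control library, log2 differences of 4.85 and 4.97. Igf1, a growth factor, stood at 1027 against 62.5 CPM in the mutant and 1135 against 80.8 CPM in the control library. Ednrb, an endothelin receptor, stood at 1010 against 95.7 CPM in the mutant and 1338 against 83.7 CPM in the control library. The neuronal and imprinted gene Nnat, the microtubule protein Map1b, the actin-binding proteins Pdlim3 and Synpo2, the scavenger receptor Scara5 and the secreted protease Htra1 were also among the 12 furthest on the higher side, beside Tgfbi, Lgr6 and Cdh4, which the split had used.

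Gene groups were as follows. Of 20 contractile genes 12 were higher and 0 lower, with medians of 1.31 log2 in the mutant and 1.57 in the control library, beside medians of 0.11 and 0.05 over all 8613 genes. Cells of the smooth muscle gate, chosen by RNA of contractile genes, were left out of the other collagen cells but not of the myofibroblast-leaning cells. Part of the contractile difference therefore follows from how the cells were chosen. With those cells also left out of the myofibroblast-leaning cells, 212 genes of all kinds were higher in both libraries and 176 lower. Of 20 measured TGF-beta genes 7 were higher, of 24 Wnt genes 8 were higher and 2 lower, and of 12 hedgehog genes 3 were higher. Wnt5a, a ligand that signals without beta-catenin, stood at 457 CPM in myofibroblast-leaning and 69.7 CPM in other collagen cells of the mutant library, and at 236 and 59.3 CPM in the control library. Ltbp2, which binds elastic microfibrils, stood at 473 against 47.9 CPM in the mutant and 244 against 27.9 CPM in the control library. On the lower side, 13 of 15 alveolar fibroblast and lipofibroblast genes were lower, in a list that holds all 8 fibroblast markers of the split. The mesenchymal transcription factor Meox2 stood at 13.5 against 320 CPM in the mutant and 11.1 against 237 CPM in the control library, and Vegfd, a lymphatic growth factor, at 27.2 against 396 CPM and 14.1 against 238 CPM.

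**Figure D3:**
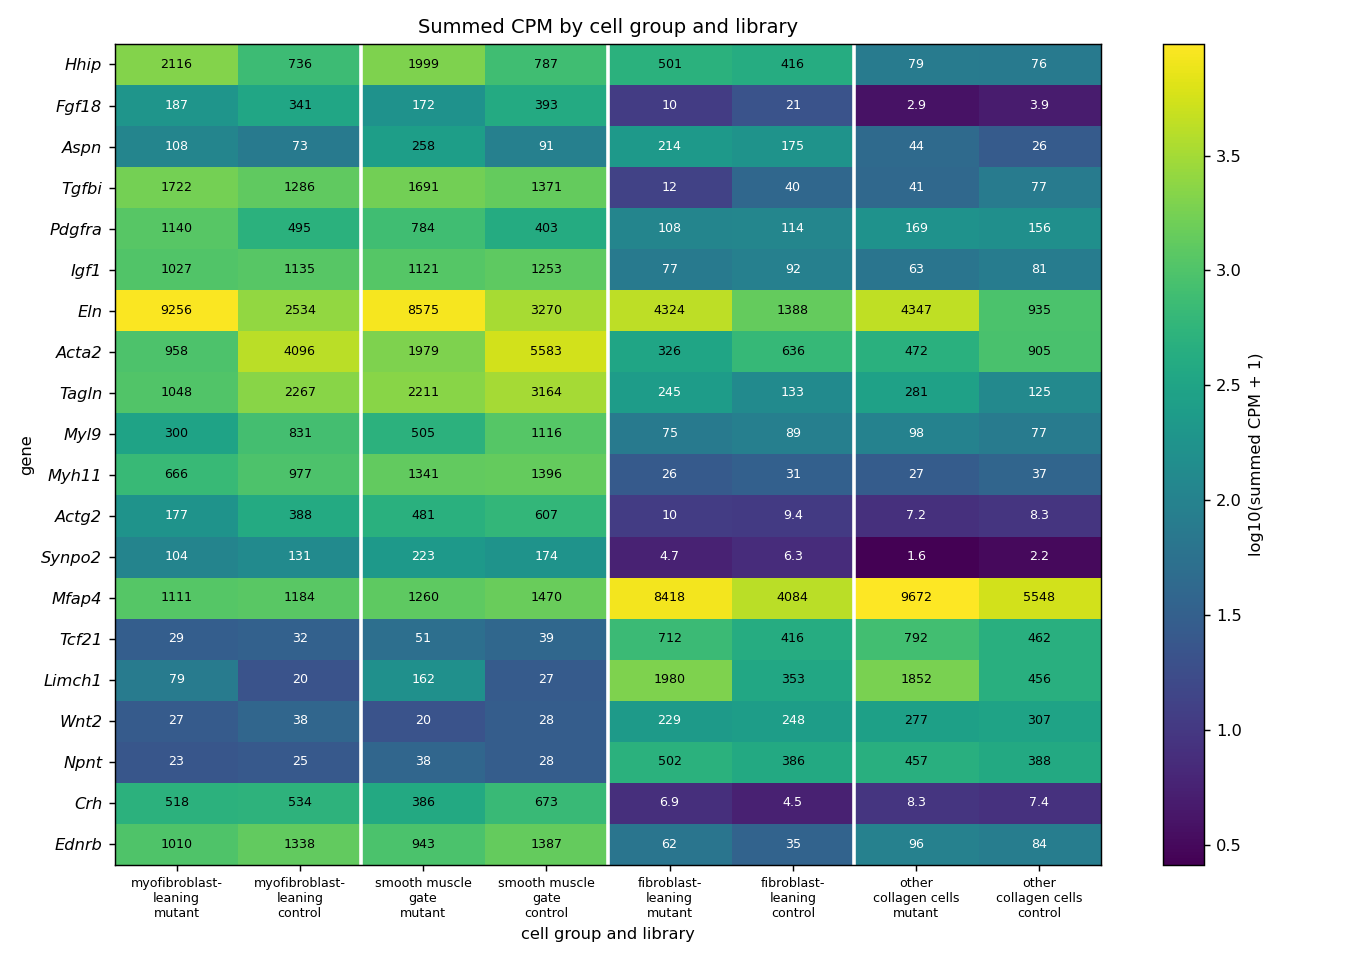
Summed CPM of 20 genes (rows, the number in each cell) in myofibroblast-leaning cells, smooth muscle gate cells, fibroblast-leaning gated cells and other collagen cells (columns, mutant left of control in each pair), with colour on a log10 scale. Myofibroblast-leaning and smooth muscle gate cells share Hhip, Fgf18, Tgfbi, Igf1, Crh and Ednrb, and Tcf21, Limch1, Wnt2, Npnt and Mfap4 are higher in the other pairs of columns. Most smooth muscle gate cells are themselves myofibroblast-leaning, so these columns overlap.

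Most cells of the smooth muscle gate were themselves in the Aspn, Hhip and Fgf18 gate. The smooth muscle gate asked for at least 10 UMIs of Actg2, Myh11 and Cnn1 together and found 221 mutant cells (6.83% of the mesenchyme; 5.99 to 7.76) and 252 control cells (8.27%; 7.31 to 9.30). Of these, 207 mutant cells (93.7%) and 214 control cells (84.9%) passed both gates. Seen from the other side, the cells in both gates were 12.7% of the mutant gated cells (11.1 to 14.4) and 35.4% of the control gated cells (31.6 to 39.3). Nearly all cells in both gates leaned to myofibroblasts, 96.6% in the mutant and 98.6% in the control library. Among myofibroblast-leaning cells, 200 of 805 mutant cells (24.8%; 21.9 to 28.0) and 211 of 342 control cells (61.7%; 56.3 to 66.9) passed the smooth muscle gate.

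The myofibroblast-leaning cells outside the smooth muscle gate had less RNA of many contractile genes than the cells of that gate, and no gene was 2-fold higher in them in both libraries. Of 8540 genes, 0 were at least 2-fold higher in both libraries (0%) and 41 were at least 2-fold lower in both (0.48%). Of 20 contractile genes 10 were lower, at medians of -1.20 log2 in the mutant and -1.20 in the control library, beside 0.00 over all genes in both. The G2 and M list went opposite ways, with medians of -0.75 log2 in the mutant and 1.28 in the control library over 9 measured genes. The 3 genes of the smooth muscle gate are in the contractile list, and their difference follows from the gate. Of all 31 lists, the contractile list had 10 genes past 2-fold, the matricellular, IGF, ion channel and myofibroblast marker lists 1 each on the lower side, and no list had a gene on the higher side.

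All gated cells outside the smooth muscle gate, fibroblast-leaning ones included, differed more from the smooth muscle gate. Here 141 of 8725 genes were higher in both libraries (1.62%) and 138 lower (1.58%). The genes furthest on the higher side were alveolar fibroblast genes, namely Npnt, Meox2, Limch1, the fatty acid transporter Slc27a6, Tcf21, Vegfd, Wnt2, G0s2, Col13a1, Adh1, Vcam1 and Maf, and of the alveolar fibroblast list 13 of 14 measured genes were higher. Actc1, the cardiac actin, was furthest on the lower side, at log2 differences of -4.30 in the mutant and -3.77 in the control library. Lmod1, Synpo2, Tagln, Acta2, Map1b, Pdlim3, Des, Myl9, Cdh4, Filip1l and Lgr6 followed, and 13 of 20 contractile genes were lower. Actc1 is also a heart muscle gene, and the 4 cardiomyocyte markers summed to 79.7 CPM in mutant and 180 CPM in control myofibroblast-leaning cells, with Myl7 and Myh6 at 0 in the control library.

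Between the libraries, all 21 genes of the G2 and M list were lower in the mutant gated cells, as were 12 of 17 S phase, 7 of 11 histone and 6 of 18 heat shock genes. Elastin was higher, as were 6 of 16 immediate early and 6 of 12 glucocorticoid response genes, and the other measured genes of these lists were not called. A gene is called higher or lower here if it was at least 2-fold so by both differences. Over the gated cells, 494 of 9985 genes were higher in the mutant library (4.95%) and 314 lower (3.14%). Over the myofibroblast-leaning cells, 496 of 9904 were higher (5.01%) and 308 lower (3.11%), and over the fibroblast-leaning cells 489 of 9835 were higher (4.97%) and 377 lower (3.83%). The median of all genes was -0.08 log2 in myofibroblast-leaning cells and 0.00 on the relative scale. The median of ratios was -0.20 log2 in these cells, and scaling by it in place of the total raised the plain differences by that size. In bulk sums of this kind, fewer cells with a transcript and less RNA in each cell cannot be told apart.

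The genes furthest apart were of long introns on the higher side. In myofibroblast-leaning cells the synaptic adhesion gene Nrxn3 stood at 4121 CPM in the mutant and 82.5 CPM in the control library, and Nlgn1, another of this kind, at 1094 and 26.5 CPM. Egfem1 stood at 3700 and 75.9 CPM, Csmd1 at 523 and 1.01 CPM, Hs6st3 at 451 and 3.53 CPM and the nuclear receptor Rora at 925 and 29.0 CPM. Each of these 6 genes has over 200 kb of intron. Galnt2l, a gene model with 4430929 bases of intron, had 493 CPM in the mutant library and no UMI in the control library. The same median was subtracted from Galnt2l and the genes before it, so their relative differences were not matched to their own intron length. Whether the effect of introns grows further within this range was not tested. Among genes with up to 10 kb of intron, those furthest on the higher side included Cyp2e1, an oxidase (140 and 5.80 CPM in mutant and control), Penk, the precursor of enkephalins (267 and 19.9 CPM), Klf2, Ndufa4l2, Cdkn1a, Btg2, Sat1, Cebpd, Zfp36, Apoe and Trib1. Enpp2, which makes lysophosphatidic acid, stood at 629 and 40.4 CPM and Xdh, xanthine dehydrogenase, at 121.5 and 5.05 CPM in mutant and control.

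Over all gated cells the ranking was Hs6st3, Galnt2l, Cp, Nrxn3, Egfem1, Ifitm1, Olfr1033, Spon1, Prkg1, Hsd11b1, Csmd1 and Rora on the higher side. Several of these were fibroblast genes that were low in myofibroblast-leaning cells. Spon1, a matrix protein, stood at 348 CPM in mutant and 9.76 CPM in control gated cells but at 28.8 and 1.77 CPM in myofibroblast-leaning cells. Hsd11b1, which regenerates active glucocorticoid, stood at 418 and 48.1 CPM in mutant and control gated cells but at 24.9 and 4.04 CPM in myofibroblast-leaning cells. Fn1, fibronectin, was called higher over gated cells, at 2560 CPM in the mutant and 383 CPM in the control library. In myofibroblast-leaning cells Fn1 was at 163 and 137 CPM in the mutant and control library, a log2 difference of 0.24. Of the alveolar fibroblast and lipofibroblast list, 10 of 19 measured genes were higher over the gated cells and 1 of 13, Slit2, over the myofibroblast-leaning cells, and the fibroblast-leaning share of the gate was 50.8% in the mutant and 43.5% in the control library. Within the fibroblast-leaning cells the 8 fibroblast markers of the split summed to 4383 CPM in the mutant and 1731 CPM in the control library, and in other collagen cells to 4264 and 1961 CPM.

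Of the marker genes, Hhip and Pdgfra were higher in mutant myofibroblast-leaning cells, and Fgf18 was lower without passing both limits. The gate had used Hhip, Fgf18 and Aspn and the split Pdgfra and Tgfbi, so their levels helped choose these cells and are a description. Hhip (ENSMUSG00000064325; mm10 chromosome 8, 79965851 to 80058006, minus strand) stood at 2116 CPM in the mutant (2084 to 2148) and 736 CPM in the control library (709 to 763), differences of 1.51 log2 and 1.10 relative. Pdgfra (ENSMUSG00000029231; chromosome 5, 75152292 to 75198215, plus strand), the receptor of PDGF-A, stood at 1140 CPM (1117 to 1163) in the mutant and 495 CPM (473 to 517) in the control library, differences of 1.19 and 1.16. Pdgfra had a UMI in 94.7% of these cells in the mutant library and in 7.85% of mutant endothelial cells. Fgf18 (ENSMUSG00000057967; chromosome 11, 33117430 to 33147400, minus strand) stood at 187 CPM (178 to 196) in the mutant and 341 CPM (323 to 359) in the control library, differences of -0.83 and -0.77. Tgfbi (ENSMUSG00000035493; chromosome 13, 56609523 to 56639562, plus strand), a secreted protein induced by TGF-beta, stood at 1722 CPM (1693 to 1750) in the mutant and 1286 CPM (1251 to 1321) in the control library, differences of 0.42 and 0.50. Aspn (ENSMUSG00000021388; chromosome 13, 49544443 to 49567565, plus strand) stood at 108 CPM (101 to 115) in the mutant and 73.4 CPM (65.2 to 82.4) in the control library. In fibroblast-leaning cells Hhip differed less, at 501 CPM in the mutant and 416 CPM in the control library, and Pdgfra stood at 108 and 114 CPM.

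Acta2 and Myh10 were lower and elastin was higher in the mutant myofibroblast-leaning cells, and the other 18 contractile genes were not called. Acta2, smooth muscle actin (ENSMUSG00000035783; mm10 chromosome 19, 34241090 to 34255590, minus strand), stood at 958 CPM in the mutant (936 to 979) and 4096 CPM in the control library (4034 to 4160), differences of -2.08 log2 and -1.77 relative. Myh10, a non-muscle myosin, stood at 214 and 444 CPM in the mutant and control library and was the other of 2 genes of the 20 called lower. For the whole list the median was -0.74 log2 and -0.80 relative, with 18 of 20 below 0 on the relative scale. Tagln stood at 1048 and 2267 CPM, Myl9 at 300.5 and 831 CPM, Tpm2 at 442 and 830 CPM and Cnn1 at 44.4 and 113 CPM in the mutant and control library, none past both limits. Des, which stood at 164 and 146 CPM, and Myocd, the coactivator of smooth muscle genes, which stood at 151.5 and 89.8 CPM, were the other 2 genes, above 0. Acta2, Actg2 and Actc1 encode near-identical actins, so how the authors' counting split their reads is uncertain. Acta2 had a UMI in 83.6% of these cells in the mutant and 100% in the control library, 66.2% and 97.1% after thinning, beside 12.02% and 26.8% of endothelial cells, 5.33% and 12.9% after thinning. The mutant share was also lower in fibroblast-leaning cells, at 66.3% against 87.8% in the control library, or 39.2% and 67.7% after thinning. In other collagen cells it was 67.6% in the mutant and 91.0% in the control library, or 49.8% and 76.65% after thinning. Cells of the smooth muscle gate made up 24.8% of these cells in the mutant and 61.7% in the control library, and within that gate Acta2 stood at 1979 CPM in the mutant and 5583 CPM in the control library.

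Elastin was the one elastic fibre gene called. Eln (ENSMUSG00000029675; mm10 chromosome 5, 134702593 to 134747323, minus strand) stood at 9256 CPM in the mutant (9190 to 9322) and 2534 CPM in the control library (2485 to 2584), differences of 1.86 log2 and 1.82 relative. It was called alone among 16 measured elastic fibre genes. Eln was also higher in other mutant cells, at 4324 and 1388 CPM in fibroblast-leaning cells and 4347 and 935 CPM in other collagen cells of the mutant and control library. In the smooth muscle gate it stood at 8575 and 3270 CPM, but 200 of 221 mutant and 211 of 252 control cells of that gate were myofibroblast-leaning cells already counted. The microfibril genes Mfap4 (1111 and 1184 CPM in mutant and control), Fbn1 (403 and 297 CPM) and Mfap2 (891 and 966 CPM), and the crosslinking enzyme Lox (405 and 485 CPM), differed by less than 2-fold. Emilin1 stood at 64.2 and 162 CPM, and the microfibril-binding protein Ltbp4 at 336 and 171 CPM, each past 2-fold on 1 scale only. The main fibrillar collagens were near level, with Col1a1 at 1038 CPM in the mutant and 1012 CPM in the control library, and Col1a2 at 1826 and 1737 CPM. Of 17 collagen genes Col15a1, a collagen of basement membrane zones, was called higher, at 95.4 and 16.7 CPM, and of 15 collagen processing genes none was called, with the chaperone Serpinh1 at 523 and 1069 CPM.

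Other matrix genes moved in both directions. Mgp, which keeps matrix from calcifying, was higher at 5240 CPM in the mutant and 2595 CPM in the control library, as were Postn (64.1 and 16.15 CPM), a matricellular protein, and the integrin subunit Itgav (204 and 72.7 CPM). The proteoglycan Vcan was lower, at 184 CPM in the mutant and 381.5 CPM in the control library. These were 3 higher and 1 lower of 23 matricellular and adhesion genes. The matrix protease list had 4 of 19 higher, namely the inhibitor Timp3 (277 and 108 CPM) and the proteases Adamts1 (652 and 206 CPM), Adamts9 (112 and 19.7 CPM) and Adamts15 (38.0 and 11.6 CPM), and 0 lower.

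Ligands, receptors and targets of the signalling pathways came in small lists, which differed in the share of genes called. The share over all 9904 genes in myofibroblast-leaning cells was 5.01% higher and 3.11% lower. Of 6 measured PDGF genes Pdgfra, a marker that the split had used, was higher. Pdgfrb stood at 68.2 CPM in the mutant and 44.9 CPM in the control library. Of 13 hedgehog genes Hhip was higher, a gate gene whose level had chosen the cells, and no other was called. The direct targets Ptch1 (265 and 298 CPM in mutant and control) and Gli1 (29.4 and 46.7 CPM) and the hedgehog-dependent factor Foxf1 (250 and 423 CPM; differences of -0.74 and -0.25) were among those not called. Of 12 FGF genes none was called, with the epithelial growth factor Fgf7 at 86.9 and 33.8 CPM and differences of 1.15 and 0.91. Of 20 TGF-beta genes 3 were higher and 0 lower, among them the receptors Tgfbr1 (127 and 40.6 CPM) and Tgfbr3 (1008 and 141.5 CPM), and the inhibitor Smad7 stood at 129 and 220 CPM. Of 12 IGF genes Igfbp2, Igfbp3 and Irs2 were higher, and Igf1 itself was near level at 1027 CPM in the mutant and 1135 CPM in the control library.

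Wnt and BMP genes were called as follows. Of 23 Wnt genes 4 were higher, namely Ror1 (670 CPM in the mutant and 61.6 CPM in the control library) and Ror2 (144 and 30.5 CPM), receptors of Wnt5a, the secreted Wnt inhibitor Notum (73.9 and 21.4 CPM) and Dkk3 (188 and 71.1 CPM). Wnt5a stood at 457 and 236 CPM in the mutant and control library, differences of 0.92 and 1.21, and the target Axin2 was near level at 94.4 and 83.8 CPM. Of 17 BMP genes the ligand Bmp2 (32.2 and 5.55 CPM) and the transducer Smad1 (151 and 53.2 CPM) were higher. The BMP target Id1 was lower, at 31.1 CPM in the mutant and 343 CPM in the control library, and so was the antagonist Nog, at 14.3 and 62.1 CPM. Id3 stood at 406 and 1018 CPM, with differences of -1.30 and -0.87. Of the retinoic acid genes Aldh1a1, which makes retinoic acid, was higher (152 and 23.7 CPM), and of 5 Notch genes Hes1 was lower (49.2 and 165 CPM).

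Fewer cells carried proliferation RNA in the mutant library. A UMI of Mki67 or Top2a was found in 25.5% of myofibroblast-leaning mutant cells (22.5 to 28.6) and 51.5% of myofibroblast-leaning control cells (46.0 to 56.9). After thinning to 3000 UMIs, which left out 3 cells in each library, the shares were 9.73% and 33.3%. The fibroblast-leaning cells had 11.4% in the mutant and 46.4% in the control library, or 4.33% and 33.1% after thinning. Other collagen cells and endothelial cells differed in the same direction, at 12.6% and 47.1%, and at 35.2% and 66.8%, of mutant and control cells. A cell type that lacks these genes was not picked out here, so no background share is given.

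The cell cycle lists followed these shares. In myofibroblast-leaning cells all 21 genes of the G2 and M list were lower, with a median of -3.00 log2 and -2.74 relative, and so were 12 of 15 measured S phase genes and 6 of 11 histone genes. Mki67 stood at 33.2 CPM in the mutant (29.4 to 37.4) and 224.5 CPM in the control library (210.0 to 240), and Ube2c at 4.29 and 341 CPM. The histone genes Hist1h2ap (1.84 and 718 CPM in mutant and control) and H2ac8 (5.76 and 306 CPM) have near-identical copies in the genome, so how the authors' counting split their reads is uncertain. The cell cycle inhibitor Cdkn1a was higher, at 188 CPM (179 to 198) in the mutant and 29.5 CPM (24.4 to 35.4) in the control library, and in fibroblast-leaning cells it stood at 13.7 and 20.6 CPM. Btg2, an antiproliferative gene that is also an early response gene, was higher at 3356 and 681 CPM in the mutant and control library. With every cell that had a Mki67 or Top2a UMI left out, 116 genes were lower in mutant myofibroblast-leaning cells, against 308 with all cells.

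**Figure D4:**
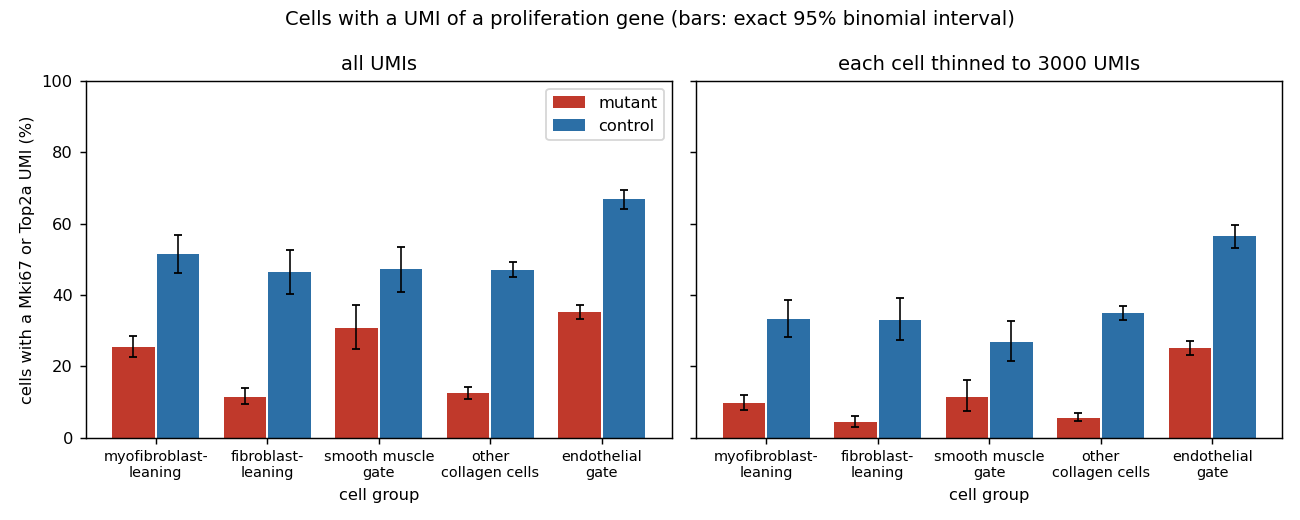
Percent of cells with a UMI of Mki67 or Top2a (y axis) in 5 groups of mouse cells (x axis), in the mutant library (red, left bar) and the control library (blue, right bar), with all UMIs (left) and after thinning of each cell to 3000 UMIs (right); bars are exact 95% binomial intervals of counting error. The mutant share is lower in each group, at 25.5% against 51.5% in myofibroblast-leaning cells.

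Stress and hormone response genes differed between the libraries in both directions. Of 16 immediate early genes 10 were higher in mutant myofibroblast-leaning cells and 0 lower, with Fos at 2710 and 1161 CPM, Egr1 at 1448 and 501 CPM, Atf3 at 649 and 185 CPM and Klf2 at 620 and 76.95 CPM in the mutant and control library. Klf2 stood at 147 and 197 CPM in fibroblast-leaning cells. Of 13 glucocorticoid response genes 8 were higher, among them Fkbp5 (239 and 55.0 CPM), Zbtb16 (234 and 39.1 CPM), Klf9 (539 and 108.5 CPM) and Mt1 (165 and 22.45 CPM), while the receptor Nr3c1 stood at 436 and 262 CPM. Of 18 heat shock genes 5 were lower and 0 higher. Hspa1a stood at 63.4 CPM in the mutant and 1131 CPM in the control library, and it and Hspa1b, at 12.6 and 364 CPM, are near-identical copies. Immediate early and heat shock RNA can also change while tissue is dissociated, and the part of that step was not tested. Of 10 interferon response genes Stat2, Ifitm1 and Ifitm3 were higher, and of 18 hypoxia and glycolysis genes Slc2a1, Bnip3, Ndrg1 and Hk2 were higher and Eno1 lower.

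Calls among transcription factors and the genes of guidance, channels and growth are given for myofibroblast-leaning cells. Over all 9904 genes, 5.01% were called higher in these cells and 3.11% lower. Of 39 mesenchymal transcription factors Stat3 (505 CPM in the mutant and 96.1 CPM in the control library), Sox5 (848 and 75.7 CPM) and Foxp2 (551 and 50.2 CPM) were higher and Hoxb5 lower (49.6 and 180 CPM). Tbx4 and Tbx5, factors of the lung mesenchyme, were not called, at 306 and 167 CPM and at 428 and 344 CPM in the mutant and control library. Of 15 Hippo pathway and YAP target genes Tead2 was lower, at 48.4 and 155 CPM. Of 24 angiogenic and guidance genes Slit2 (659 and 64.1 CPM), Ntn4 (151 and 9.33 CPM), Epha4 (106 and 23.7 CPM) and Gdnf (21.9 and 3.78 CPM) were higher. Of 16 ion channel and calcium genes 6 were higher, among them Kcnj8 (54.8 and 6.31 CPM) and Abcc9 (47.6 and 5.55 CPM), which form a potassium channel of mural cells, and the muscarinic receptor Chrm2 (55.5 and 8.58 CPM). Of 21 imprinted and fetal growth genes Mest (24.1 and 83.3 CPM) and Peg10 (4.90 and 28.3 CPM) were lower, and H19 stood at 947 and 917 CPM.

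**Figure D5:**
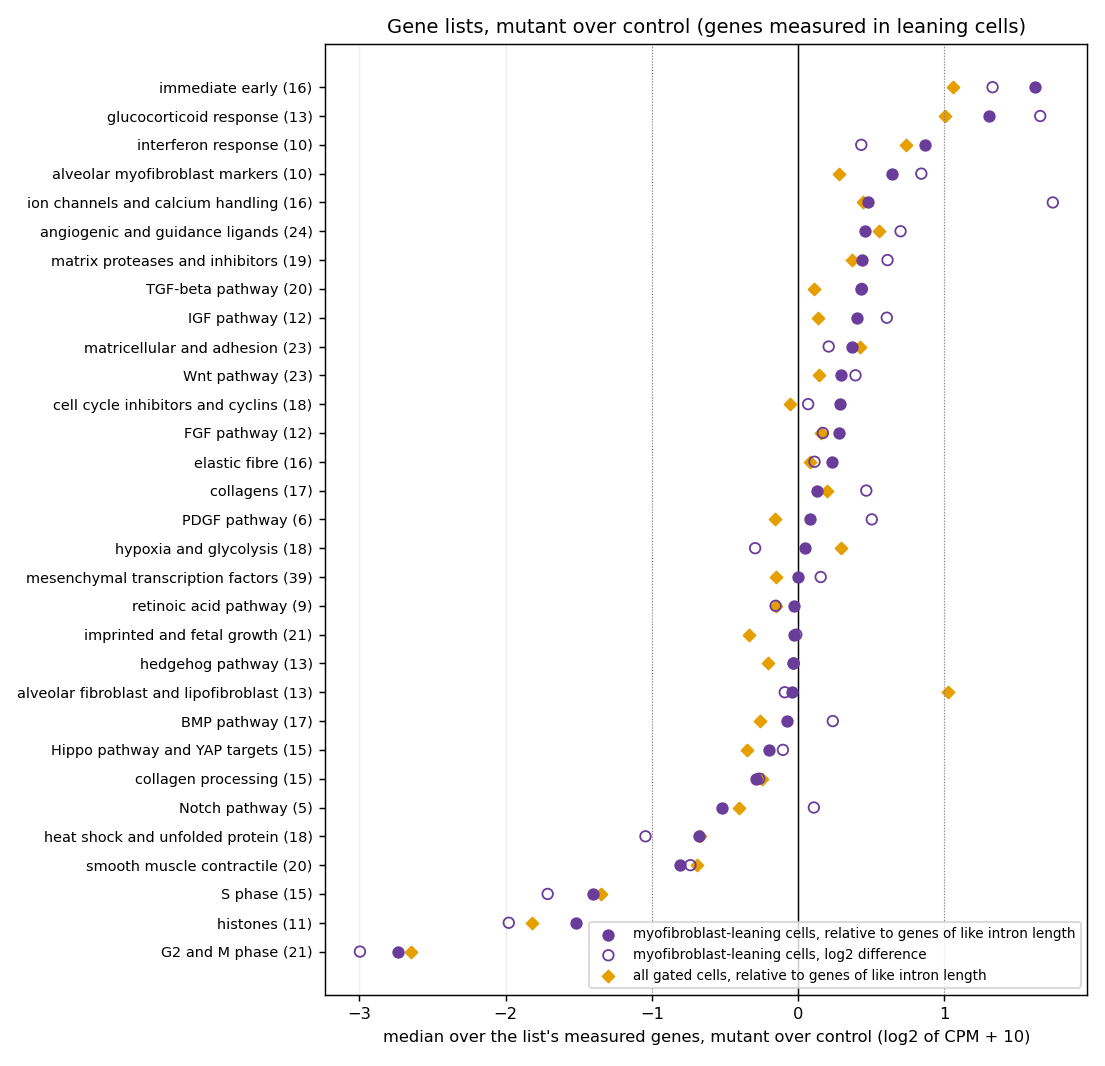
Median difference of each gene list (rows, with the number of measured genes in brackets) between the mutant and control libraries on a log2 scale (x axis). Filled circles are the relative differences of myofibroblast-leaning cells, open circles the plain log2 differences of the same cells, and diamonds the relative differences of all gated cells. The G2 and M list lies lowest, at -2.74 relative, and the immediate early list highest, at 1.62 relative, and the alveolar fibroblast list differs most between circle and diamond.

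RNA of other cell types was present in differing amounts and differed between the libraries. The 5 AT2 cell markers (Sftpc, Sftpb, Sftpa1, Lamp3 and Slc34a2) summed to 1518 CPM in mutant and 286 CPM in control myofibroblast-leaning cells, none at 0, beside 85122 and 32860 CPM in epithelial and 6821 and 7627 CPM in endothelial cells. In the mutant and control library they summed to 306 and 269 CPM in the smooth muscle gate, 475 and 242 CPM in fibroblast-leaning and 564 and 282.5 CPM in other collagen cells. The 3 erythroid markers summed to 861 CPM in mutant and 148 CPM in control myofibroblast-leaning cells, the 5 immune markers to 89.8 and 27.2 CPM with C1qa at 0 in the mutant, and the 5 endothelial markers to 42.0 and 24.7 CPM with none at 0. The 9 pericyte markers, 4 of them limited by the gate, summed to 391.8 and 197.8 CPM in mutant and control myofibroblast-leaning cells, none at 0. Of the 5 mesothelial markers none was at 0 in fibroblast-leaning cells, and they summed to 27.5 CPM in mutant and 20.2 CPM in control myofibroblast-leaning cells, with Wt1 and Lrrn4 at 0 in the mutant and Lrrn4 at 0 in the control library. The 5 AT1 cell markers summed to 137 and 27.5 CPM, the 7 adventitial fibroblast markers to 378 and 239 CPM and the 4 chondrocyte markers to 9.32 and 12.1 CPM in mutant and control myofibroblast-leaning cells, with Matn1 at 0 in both libraries and Acan at 0 in the control library. Their part in the differences between the libraries was not tested. Genes over 5 times higher in epithelial, endothelial, immune or red cell barcodes were kept out of the rankings, which concerned 16 of 1808 genes in myofibroblast-leaning cells.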

How the data were processed

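Single-cell RNA was counted by the authors as UMI counts per gene and barcode against mouse mm10 and rat rn6 together (builds per the submitters' processing notes), in 1 deposited matrix a library. Cell Ranger was 7.0.1 for the mutant and 6.0.1 for the control matrix, per the file headers, and Seurat 4.3 is named in the submitters' processing notes. Whether intron reads were counted is not given in the sources used here. The deposited counts were used as they stand, with python 3.11.15, numpy 2.4.6, scipy 1.17.1, pandas 2.3.3 and scanpy 1.11.5.

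Mouse UMIs were summed over the cells of each group and library and given as CPM with exact Poisson intervals, and shares with Clopper-Pearson intervals. Genes needed 10 CPM in either group. Log2 differences had 10 CPM added, and relative differences subtract the median of 200 genes on each side by intron length (GENCODE vM21, which matched 99.5% of mouse symbols). At the ends of the intron range the window of genes did not move, so the genes with the longest introns shared one median. The scripts were tested on simulated data. Genes were named as the 12 largest differences on each side among genes of at least 100 CPM and 20 UMIs that passed the limits. Other collagen cells met the same quality, collagen, epithelial, endothelial and pericyte limits, and were in neither the gate for Aspn, Hhip and Fgf18 nor the smooth muscle gate. Smooth muscle gate cells met the same limits except the collagen limit, which was not asked of them. No doublets were removed, and leaving out Scrublet scores of 0.2 or more, which marked 39 mutant and 6 control gated cells, was an alternative. Other alternatives changed the gate, depth, filters, pseudocount, scaling and intron handling. The gate, marker lists and gene lists were chosen with earlier results of these data known, and the split into leaning cells was made after seeing the files. A few genes are not reported here.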

Additional observations from a re-analysis of the deposited data

How the results depend on the processing

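The share of gated cells in the mesenchyme was higher in the mutant than in the control library under every alternative run, and so was the share of myofibroblast-leaning cells, except without Hhip in the gate. For all gated cells of the mutant library the share was 63.83% with at least 3 gate UMIs, 30.7% with at least 10, 44.17% without cells of the smooth muscle gate, 23.77% after thinning to 3000 UMIs, 12.33% without Hhip and 24.88% for myofibroblast-leaning cells. In the control library the same settings gave 32.99%, 8.232%, 12.82%, 7.937%, 7.281% and 11.22%. The myofibroblast-leaning share in the mutant library was 21.02% with at least 10 gate UMIs, 18.7% without smooth muscle gate cells, 21.01% after thinning and 4.668% without Hhip. In the control library it was 14.3% with at least 3 gate UMIs, 6.724% with at least 10, 4.296% without smooth muscle gate cells, 6.65% after thinning and 4.788% without Hhip.

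Counts of called genes moved with the limits. Over gated cells, genes higher in the mutant library numbered 867 with 1 CPM added, 290 at 50 CPM or more, 759 with no filter, 1076 by log2 difference alone, 197 among genes with up to 10 kb of intron and 73 at 4-fold. Genes lower numbered 538, 157, 636, 658, 176 and 53 under the same settings, and 123 without cells that had a Mki67 or Top2a UMI. In myofibroblast-leaning cells the higher counts were 885, 291, 763, 1110, 236 and 78, the lower counts 519, 139, 564, 609, 180 and 60, and 116 without Mki67 or Top2a cells.

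Against the smooth muscle gate, genes higher in gated cells numbered 231 with 1 CPM added, 88 at 50 CPM or more, 51 with up to 10 kb of intron, 22 at 4-fold, 0 for myofibroblast-leaning cells and 71 against the 14 mutant and 38 control smooth muscle cells outside the gate. Genes lower numbered 259, 91, 46, 12, 41 and 46 under the same settings, and 57 with at least 10 gate UMIs. For myofibroblast-leaning cells the higher count was 2 with at least 3 gate UMIs, 1 with at least 10, 3 with 1 CPM added and 1 with up to 10 kb of intron, and the lower count was 77 with 1 CPM added, 23 at 50 CPM or more, 17 with up to 10 kb of intron and 4 at 4-fold. Over other collagen cells the higher counts were 520, 168, 114 and 65 and the lower counts 284, 115, 55 and 38, with 1 CPM added, at 50 CPM or more, with up to 10 kb of intron and at 4-fold. The fewer genes at 50 CPM, at 4-fold and with short introns follow from the stricter limits. The cause of the other moves was not tested.

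Among the named genes and the gene lists, those called at least 2-fold by both differences were followed under the alternatives run. None of these changed sign, but they were chosen as far from 0, and genes not called were not followed. Of the medians of gene lists, 26 changed sign under at least 1 alternative. The BMP list had medians of 0.24 log2 and -0.07 relative in myofibroblast-leaning cells, and 0.31 and -0.26 over gated cells. Among genes with up to 10 kb of intron, the angiogenic and guidance list had a median of -0.27 in myofibroblast-leaning cells, against 0.70 over all its genes. The settings without Hhip, with leaning cells, with smooth muscle cells outside the gate and without shared barcodes were chosen after seeing the data. For the contrast with the smooth muscle gate, leaving out the cells in both gates is the same as the comparison already made. No paired analysis was possible because each group was 1 library. Leaving out a replicate was likewise impossible. Counting error at this depth limits genes of few UMIs, and levels in CPM are relative to each library's total.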

Other observations

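Rat cells were few in the mutant library. Barcodes with at most 10% of UMIs on mouse genes numbered 79 in the mutant and 725 in the control library, of which 56 and 417 passed the collagen limit. The gate for Aspn, Hhip and Fgf18 applied to rat genes found 5 such barcodes in the mutant and 59 in the control library. Col1a2 and Pecam1 are not among the rat gene symbols of the matrices, so the rat limits rested on the other genes.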
